A study of Mus musculus with 17 samples.

Results

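Transcripts of 10 genes that mark neutrophils were followed in microvessels isolated from the cortex of mice. The genes were the granule genes Ngp, Ltf, Camp, Mmp8 and Mmp9, the calprotectin genes S100a8 and S100a9, the surface genes Ly6g and Cxcr2, and the secreted factor Retnlg. They were taken by symbol, and each matched 1 of the 42687 Ensembl rows of the count table. Wild-type (WT) mice and mice with the APP/PS1 transgenes, a model of amyloid deposition, were 10 to 11 months old. Every mouse was injected intraperitoneally with a peptide at 10 mg/kg, given at intervals of 2 days over 2 weeks, so no group was untreated. The protocol for all groups says that vessels came from the ipsilateral cortex after surgery and does not say what the surgery was. Some received gp91-ds-tat, which inhibits NOX2, an NADPH oxidase that makes superoxide, and the others its control, sgp91-ds-tat. The sample labels NOX2 and SC were read as inhibitor and control. The groups were WT with control peptide (WT_SC, 5 libraries), WT with inhibitor (WT_NOX2, 5), APP/PS1 with control peptide (APP_SC, 2) and APP/PS1 with inhibitor (APP_NOX2, 5). The title of the series names the arrest of neutrophils in brain capillaries, which is the question these genes bear on. The labels do not say that each library came from a separate mouse, so p-values measure only the spread between libraries.

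Neutrophils are short-lived white blood cells that carry antimicrobial proteins and proteases in granules made stage by stage during their maturation in bone marrow. Ngp, Ltf and Camp belong to the specific granules, which are filled in precursors, and their transcripts fade as the cells mature. Cxcr2, the receptor for the CXC chemokines that draw neutrophils out of marrow and into tissue, and Retnlg, a resistin-like secreted protein, are transcripts of mature cells. S100a8 and S100a9 encode the calprotectin pair, an abundant cytosolic protein complex of neutrophils and some monocytes. In brain, neutrophils are met mainly inside vessels, where they can slow or stop in capillaries.

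Some of the genes lie close together. In GENCODE vM21 on GRCm38, the assembly that mm10 also denotes, Camp (chr9:109847379-109849617), Ngp (chr9:110419747-110423012) and Ltf (chr9:111019271-111042767) lie within 1.195 Mb of chromosome 9. S100a8 (chr3:90668978-90670035) and S100a9 (chr3:90692632-90695721) lie within 26.7 kb of chromosome 3. The other genes are Mmp8 (chr9:7558456-7568485), Mmp9 (chr2:164940780-164955850), Ly6g (chr15:75155240-75159126), Cxcr2 (chr1:74153989-74161246) and Retnlg (chr16:48872621-48874496). No exon of the 10 genes overlapped an exon of another gene in that annotation. RefSeq promoter sequences of GRCm38.p6 were found for 9 of the 10 genes. They end at RefSeq's start sites, which differ from the GENCODE starts given for all but S100a9. The windows of Ngp, Ltf, Cxcr2, Camp, S100a8 and Ly6g therefore run past the GENCODE starts, and the second match of Ngp lies inside the gene as GENCODE lists it. Specific granule genes are known targets of the C/EBP family of transcription factors, so the 250 bases before each RefSeq start site were searched for TTNNGCAA on both strands (TTGCNNAA on the printed one), where N is any base. The motif was chosen with these sequences in view. It was present for 6 of the 9 genes, Ngp, Ltf, Mmp8, S100a9, Ly6g and Retnlg, and for 9.55% of 27025 genes with a promoter in the table. For Ly6g this depended on the start site taken. The letters were found in the window chr15:75155011-75155260 and not in that of another start site, chr15:75155079-75155328. A match is a description of letters and not evidence of binding. The 250 bases of the 3 granule genes with a match and of Cxcr2, in which the letters were not found, are shown 5′ to 3′ with matches in capitals. They are shown because Ngp and Ltf were high in other libraries than Cxcr2, while Mmp8 was high in those of both kinds. The genes not shown did not follow that division. Camp, highest in the same libraries as Ngp, had no match, and Retnlg, highest in the same library as Cxcr2, had a match. S100a9 had a match and S100a8 had none, though both were highest in WT_NOX2 replicate 2.
Ngp (chr9:110419558-110419807, + strand): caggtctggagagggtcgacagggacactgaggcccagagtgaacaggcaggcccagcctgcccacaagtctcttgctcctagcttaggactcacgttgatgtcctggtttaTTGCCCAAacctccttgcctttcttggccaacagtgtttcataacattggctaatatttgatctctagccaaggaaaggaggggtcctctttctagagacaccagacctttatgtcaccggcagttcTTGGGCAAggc
Ltf (chr9:111019042-111019291, + strand): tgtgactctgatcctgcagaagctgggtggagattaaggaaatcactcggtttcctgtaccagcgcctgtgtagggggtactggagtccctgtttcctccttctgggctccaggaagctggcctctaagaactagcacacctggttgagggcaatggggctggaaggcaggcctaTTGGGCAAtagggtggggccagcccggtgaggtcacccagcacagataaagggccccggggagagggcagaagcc
Mmp8 (chr9:7558179-7558428, + strand): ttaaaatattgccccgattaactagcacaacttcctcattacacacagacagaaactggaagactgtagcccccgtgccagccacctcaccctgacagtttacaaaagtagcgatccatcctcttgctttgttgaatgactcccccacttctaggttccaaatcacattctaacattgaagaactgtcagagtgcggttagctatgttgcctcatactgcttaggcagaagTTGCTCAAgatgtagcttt
Cxcr2 (chr1:74153744-74153993, + strand): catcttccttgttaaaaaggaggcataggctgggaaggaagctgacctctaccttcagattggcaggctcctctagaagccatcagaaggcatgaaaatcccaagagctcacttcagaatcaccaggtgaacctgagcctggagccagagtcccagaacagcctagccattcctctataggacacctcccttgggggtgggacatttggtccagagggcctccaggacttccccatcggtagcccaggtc

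Total counts per library ranged from 7316503 to 17862965, so 3 counts, taken as the smallest level that could be read, corresponded to 0.174 to 0.390 CPM (the usual scaled read count, relative to the TMM-adjusted library size). The labelled vessel and endfoot cells were present: summed markers of endothelium, pericytes and astrocytes were at least 1855, 947 and 2845 CPM in every library. Neuron markers were also at 2415 CPM or more, and choroid plexus markers varied from 29.4 to 8097 CPM. The libraries were made from bulk material, in which fewer cells of a type and less RNA per cell cannot be told apart. Whether blood was flushed from the vessels is not given in the sources used here.

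The 10 neutrophil genes had few counts. Ly6g, Camp and Mmp8 were under 3 counts in 17, 15 and 11 of the 17 libraries, Cxcr2 and Retnlg in 6 each, and the others in 4 or fewer. The counts of all 10 added up to between 26 and 244 per library, or 2.41 to 15.8 CPM for all 10 together. Ly6g, the surface antigen by which mouse neutrophils are usually identified, had 0 counts in 15 of 17 libraries and 1 count in each of the other two, APP_SC replicate 2 and APP_NOX2 replicate 4. Ly6g belongs to a family of similar genes, and reads shared with relatives make its count uncertain. Camp, the precursor of the antimicrobial peptide cathelicidin, had 0 counts in 11 libraries and 13 counts in all. Mmp9 was the only one of the 10 with 3 or more counts in all 17 libraries. Scaled to exon length, the mean level over the 17 libraries was highest for S100a8 (1.22 CPM per kb) and S100a9 (1.21 CPM per kb). Ngp followed at 0.867, Retnlg at 0.573 and Mmp9 at 0.520 CPM per kb. Ltf, Cxcr2 and Mmp8 were lower, at 0.164, 0.152 and 0.134 CPM per kb, and Camp and Ly6g lowest, at 0.0750 and 0.0109.

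**Figure D1:**
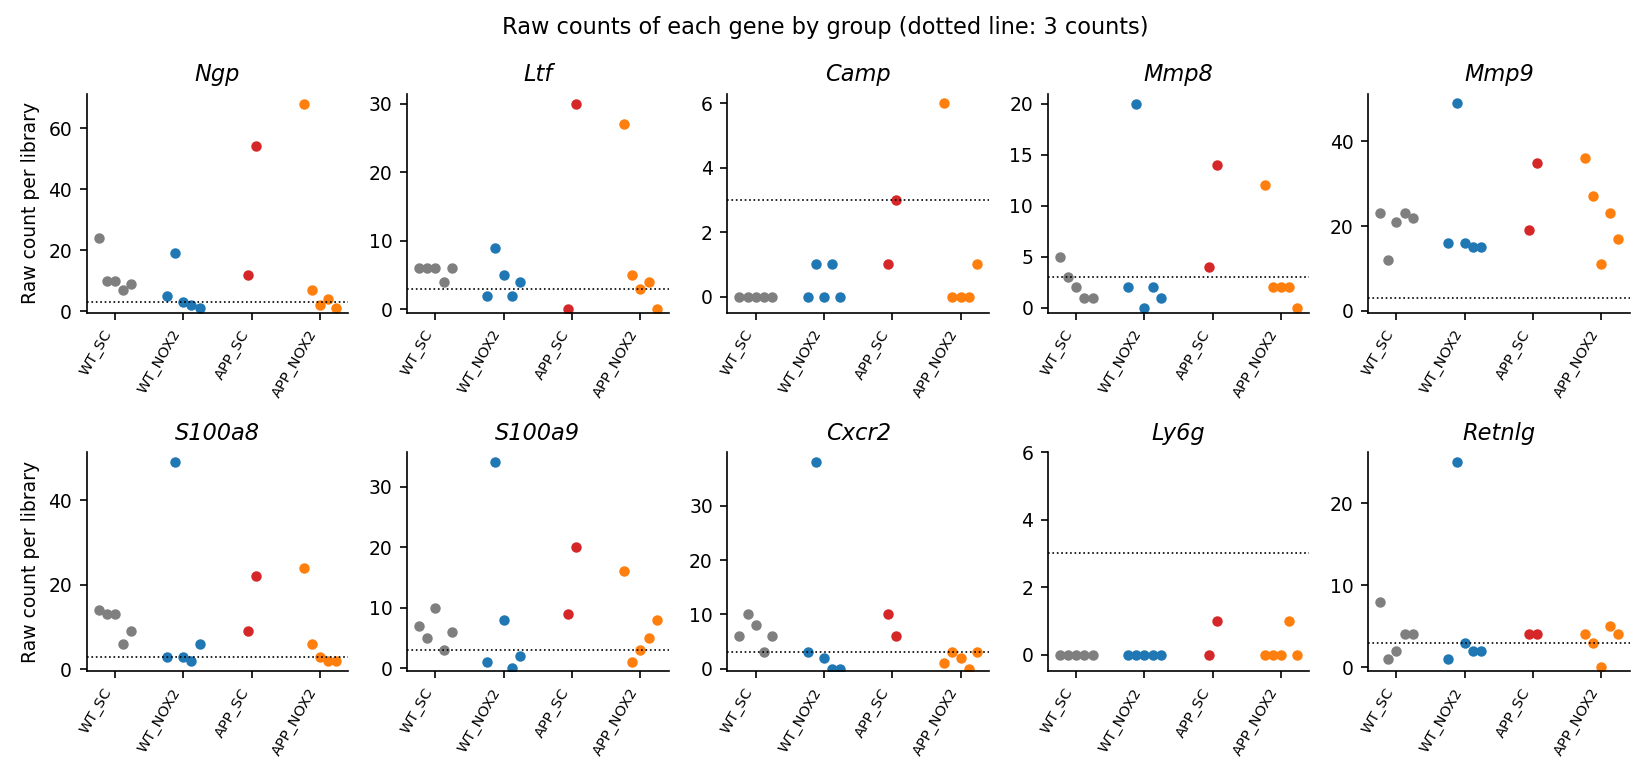
Raw counts (vertical axes, a separate linear scale for each gene) of the 10 genes in the 17 libraries, each point 1 library, by group. The dotted line marks 3 counts. Ngp and Ltf are highest in 1 library of APP_SC and 1 of APP_NOX2, whereas Cxcr2, Retnlg, S100a8 and S100a9 are highest in 1 library of WT_NOX2.

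Counts are given here by group in the order of replicate number. Ngp, a cystatin-like protein of the specific granule, had 24, 10, 10, 7 and 9 counts in WT_SC and 5, 19, 3, 2 and 1 in WT_NOX2. It had 12 and 54 counts in APP_SC and 68, 7, 2, 4 and 1 in APP_NOX2. In CPM, 1 library of APP_SC (4.49) and 1 of APP_NOX2 (4.30) stood above the other 15, of which the highest was WT_SC replicate 1 at 1.39. The exact 95% Poisson intervals of the counts 54 and 68 were 40.6 to 70.5 and 52.8 to 86.2, and they cover counting error only. All 4 groups overlapped.

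Ltf, the iron-binding lactoferrin of the same granules, had 6, 6, 6, 4 and 6 counts in WT_SC and 2, 9, 5, 2 and 4 in WT_NOX2. It had 0 and 30 counts in APP_SC and 27, 5, 3, 4 and 0 in APP_NOX2. The high libraries were again APP_SC replicate 2 and APP_NOX2 replicate 1, whereas APP_SC replicate 1 had no count at all. The floor of 3 counts was 0.182 CPM in that library. Camp reached 3 counts in these same libraries only, with 3 in APP_SC replicate 2 and 6 in APP_NOX2 replicate 1.

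Mmp8, neutrophil collagenase, had 5, 3, 2, 1 and 1 counts in WT_SC and 2, 20, 0, 2 and 1 in WT_NOX2. It had 4 and 14 counts in APP_SC and 12, 2, 2, 2 and 0 in APP_NOX2. Here 3 libraries were high, those of Ngp and also WT_NOX2 replicate 2. Mmp9, gelatinase B, is stored in the late gelatinase granules and is also made by other cells. It had 23, 12, 21, 23 and 22 counts in WT_SC, 16, 49, 16, 15 and 15 in WT_NOX2, 19 and 35 in APP_SC, and 36, 27, 11, 23 and 17 in APP_NOX2. Its highest level, 3.18 CPM in WT_NOX2 replicate 2, was 1.63 times its median over libraries, against 7.18 times for Ngp and 9.20 times for Cxcr2.

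S100a8 had 14, 13, 13, 6 and 9 counts in WT_SC and 3, 49, 3, 2 and 6 in WT_NOX2. It had 9 and 22 counts in APP_SC and 24, 6, 3, 2 and 2 in APP_NOX2. S100a9 had 7, 5, 10, 3 and 6 counts in WT_SC, 1, 34, 8, 0 and 2 in WT_NOX2, 9 and 20 in APP_SC, and 16, 1, 3, 5 and 8 in APP_NOX2. Both genes of the calprotectin pair were highest in WT_NOX2 replicate 2, with APP_SC replicate 2 and APP_NOX2 replicate 1 next in count. For S100a8, 4 of the 5 WT_NOX2 libraries, at 0.260 to 0.466 CPM, were below all 5 WT_SC libraries, at 0.536 to 1.36 CPM, and the fifth was above them at 3.18 CPM.

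Cxcr2 had 6, 10, 8, 3 and 6 counts in WT_SC and 3, 38, 2, 0 and 0 in WT_NOX2. It had 10 and 6 counts in APP_SC and 1, 3, 2, 0 and 3 in APP_NOX2. The only library far above the rest was WT_NOX2 replicate 2, at 2.46 CPM (38 counts, exact 95% Poisson interval 26.9 to 52.2), and the libraries with high Ngp were not high for Cxcr2. Retnlg had 8, 1, 2, 4 and 4 counts in WT_SC, 1, 25, 3, 2 and 2 in WT_NOX2, 4 and 4 in APP_SC, and 4, 3, 0, 5 and 4 in APP_NOX2. Its high library was likewise WT_NOX2 replicate 2.

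Summed over the 10 genes, 3 libraries stood apart from the other 14. These were WT_NOX2 replicate 2 (15.8 CPM, 244 counts), APP_SC replicate 2 (15.7 CPM, 189 counts) and APP_NOX2 replicate 1 (12.3 CPM, 194 counts), against 2.41 to 7.32 CPM in the others. The group means were 6.03 CPM ± 1.08 (SD, n = 5) in WT_SC, 5.66 ± 5.70 (SD, n = 5) in WT_NOX2, 9.92 ± 8.20 (SD, n = 2) in APP_SC and 5.24 ± 3.97 (SD, n = 5) in APP_NOX2. Each of the 3 groups with a high library therefore had a spread close to its mean, and WT_SC did not. Without the high library, the mean was 3.12 CPM in WT_NOX2 and 3.48 CPM in APP_NOX2, and the remaining APP_SC library was at 4.12 CPM. The 5 WT_SC libraries, at 4.56 to 7.32 CPM, were then above every remaining library of the other groups, of which the highest was APP_NOX2 replicate 4 at 4.17 CPM. That order was seen after leaving out libraries for their level and is given with no test.

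**Figure D2:**
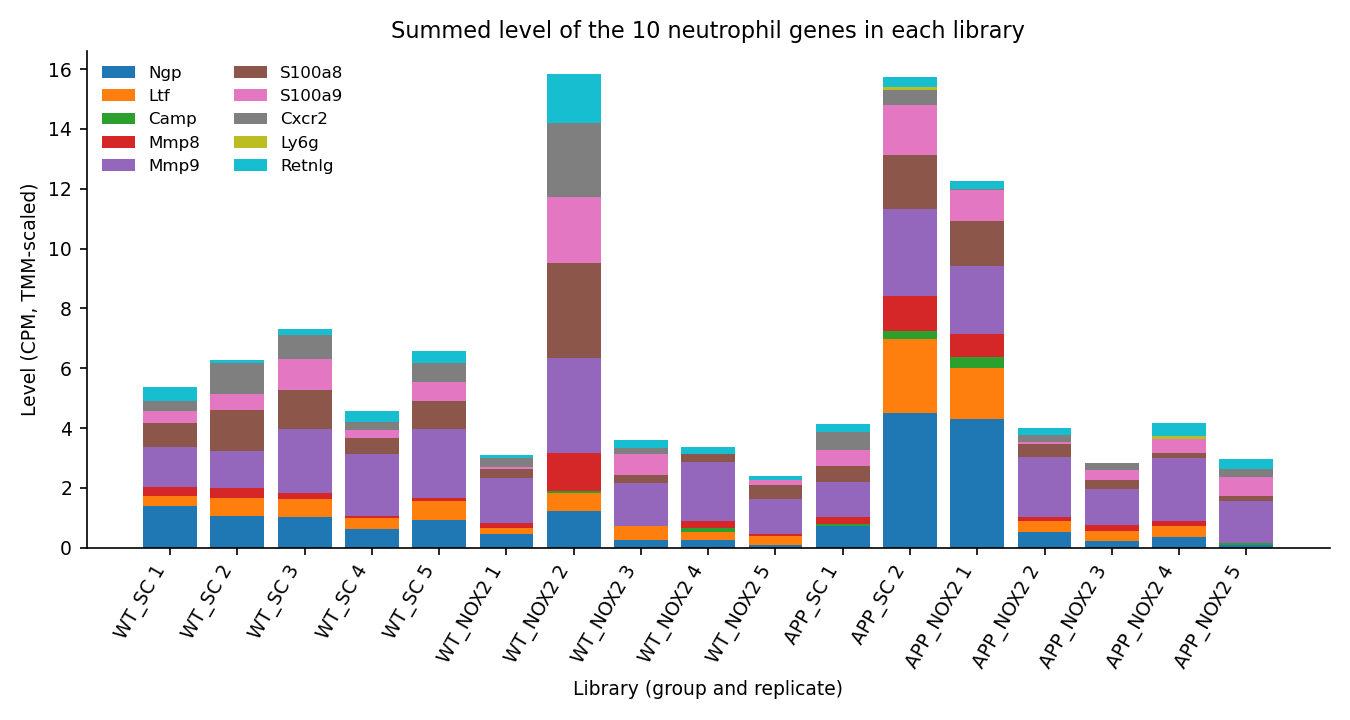
Summed level of the 10 genes (vertical axis, CPM on TMM-scaled library sizes) in each of the 17 libraries (horizontal axis), with 1 colour per gene. WT_NOX2 replicate 2, APP_SC replicate 2 and APP_NOX2 replicate 1 reach 15.8, 15.7 and 12.3 CPM, and the other 14 libraries lie between 2.41 and 7.32 CPM.

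The 3 high libraries differed in which of the genes they held. Ngp, Ltf and Camp were set against Cxcr2 and Retnlg, a split chosen after the values were seen. In APP_SC replicate 2, 87 of these 97 counts came from Ngp, Ltf and Camp (89.7%, 95% Wilson interval 82.1 to 94.3). In APP_NOX2 replicate 1 it was 101 of 106 counts (95.3%, 89.4 to 98.0). In WT_NOX2 replicate 2 it was 29 of 92 counts (31.5%, 22.9 to 41.6). Since the split was chosen for this difference, the intervals only describe the counting error of each share. The WT_SC libraries lay between them, at 59.3 to 68.2%, each from 18 to 44 counts. Over all 14 other libraries the share ranged from 22.2 to 71.4%, on 7 to 44 counts, and APP_NOX2 replicate 5, at 22.2% of 9 counts, was below WT_NOX2 replicate 2. In level, APP_SC replicate 2 and APP_NOX2 replicate 1 had 7.24 and 6.38 CPM of Ngp, Ltf and Camp, against 1.88 CPM in WT_NOX2 replicate 2. For Cxcr2 and Retnlg the order was the opposite, with 0.832 and 0.316 CPM against 4.09 CPM. S100a8 and S100a9 together were high in all 3, at 3.49, 2.53 and 5.38 CPM, and at most 2.34 CPM elsewhere.

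**Figure D3:**
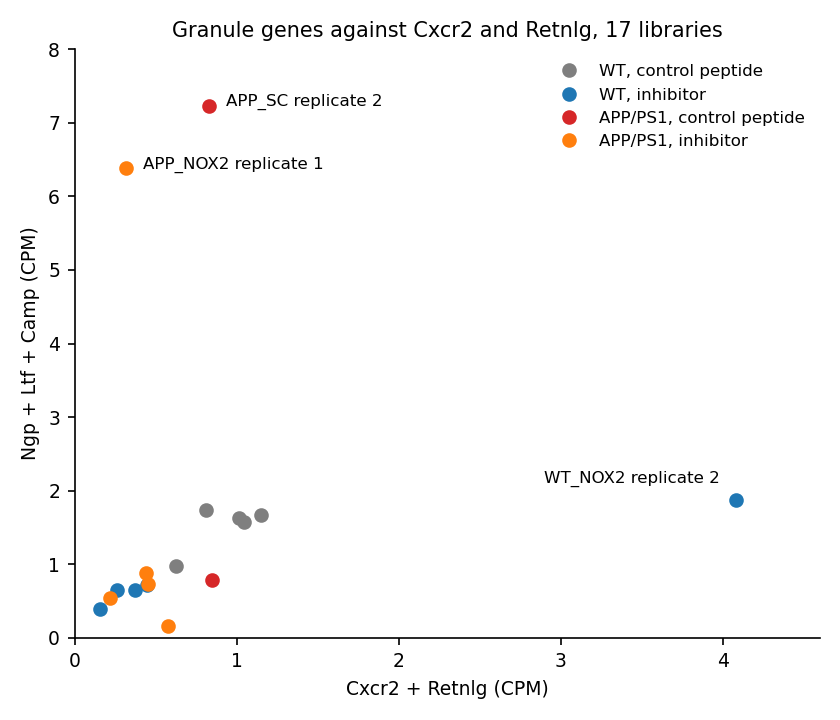
Level of Ngp, Ltf and Camp together (vertical axis, CPM) against Cxcr2 and Retnlg together (horizontal axis, CPM) in 17 libraries, each point 1 library, coloured by group. APP_SC replicate 2 and APP_NOX2 replicate 1 lie high on the vertical axis at 7.24 and 6.38 CPM, and WT_NOX2 replicate 2 lies far along the other axis at 4.09 CPM. The granule genes Mmp8 and Mmp9 are in neither sum and were highest in WT_NOX2 replicate 2.

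Other neutrophil genes also differed between these 3 libraries. Mpo, the myeloperoxidase of azurophil granules, had 13 counts in APP_NOX2 replicate 1, 4 in APP_SC replicate 2 and 0 in WT_NOX2 replicate 2, and at most 3 in any other library. Over a list of 8 genes of neutrophil precursors, the summed level was highest of the 17 libraries in APP_NOX2 replicate 1 (1.96 CPM, 31 counts). APP_SC replicate 2 was second (1.25 CPM, 15 counts), with APP_NOX2 replicate 2 (1.03 CPM, 14 counts) and WT_SC replicate 3 (1.02 CPM, 10 counts) next. WT_NOX2 replicate 2 was number 13, at 0.324 CPM and 5 counts. The others with the highest mean level on that list were Fcnb, Ctsg and Prtn3. Fcnb had 8 counts in APP_NOX2 replicate 1, 0 in APP_SC replicate 2 and 3 in WT_NOX2 replicate 2. Ctsg had 1, 1 and 0 counts in the same order, and Prtn3 1, 6 and 1. Ctsg was highest in APP_NOX2 replicate 2, with 5 counts, and Prtn3 in WT_NOX2 replicate 3, with 9, so neither followed Mpo. A list of 26 other genes of mature neutrophils was also summed. On it APP_NOX2 replicate 1 was number 11 of 17 (71.5 CPM), APP_SC replicate 2 number 9 (77.3 CPM) and WT_NOX2 replicate 2 number 3 (127 CPM). That sum was mostly Pglyrp1, Lcn2 and Csf3r, with 731, 697 and 258 of 1961 counts in WT_NOX2 replicate 2. Numbers 1, 2 and 4 were WT_SC replicates 5, 1 and 2, with 1078, 976 and 453 counts of Lcn2. Among genes outside the naming rule, picked after their values were seen, Chil3 had 22 counts in APP_SC replicate 2 and 21 in APP_NOX2 replicate 1, against 11 or fewer elsewhere. Il1b, which encodes the cytokine interleukin-1 beta, had 24 counts in WT_NOX2 replicate 2 and at most 8 elsewhere.

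Markers of other blood and marrow cells also differed between the 3 libraries. Haemoglobin and reticulocyte genes (5 genes) summed to 31.7 CPM in WT_NOX2 replicate 2, number 2 of 17, to 19.0 CPM in APP_SC replicate 2, number 4, and to 12.8 CPM in APP_NOX2 replicate 1, number 9. Their range was 1.04 to 15.8 CPM in WT_SC, 1.35 to 31.7 in WT_NOX2, 9.64 to 19.0 in APP_SC and 12.8 to 38.0 in APP_NOX2. Hba-a1 and Hba-a2 were at 0 or 1 count in every library. Markers of erythroid precursors (6 genes) were number 1 of 17 in WT_NOX2 replicate 2, at 8.88 CPM. APP_SC replicate 2 was number 4 for them (8.57 CPM) and APP_NOX2 replicate 1 number 7 (5.37 CPM). Slc4a1 and Epor made up 75 and 36 of their 137 counts in WT_NOX2 replicate 2. Markers of immature B cells of marrow (5 genes, 0.116 to 1.52 CPM over all libraries) were highest in APP_NOX2 replicate 1, with 24 counts. Of these, 10 were of Vpreb1, 12 of Rag1 and 2 of Igll1, and Vpreb3 and Dntt had 0. Rag1 had at least 1 count in every library, and Vpreb3 was highest in WT_NOX2 replicate 5, with 4 counts. In APP_SC replicate 2 the 5 genes came to 2 counts, and in WT_NOX2 replicate 2 to 5. WT_SC replicate 4 was close behind APP_NOX2 replicate 1, at 1.34 CPM (15 counts) against 1.52 CPM. In CPM, Vpreb1 was highest in APP_NOX2 replicate 4, at 0.726 CPM (8 counts). Monocyte markers (5 genes) were number 7, 8 and 5 of 17 in WT_NOX2 replicate 2, APP_SC replicate 2 and APP_NOX2 replicate 1, and platelet markers (5 genes) number 3, 7 and 9. T and B cell markers (7 genes, 0.521 to 3.32 CPM) were number 8, 11 and 7. The monocyte sum was mostly F13a1, with 187 of 250 counts in WT_NOX2 replicate 2. Ccr2 (39 counts) and Ly6c2 (19 counts) were highest in that library, whereas Plac8 had 0 counts there and Chil3 had 5. The part of these cells in the neutrophil counts was not tested.

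In tests across all genes, none of the 10 neutrophil genes was called in any comparison. A filter on low counts left 7 of them, Ngp, Ltf, S100a8, S100a9, Mmp8, Mmp9 and Cxcr2, among 18753 genes, and left out Camp, Ly6g and Retnlg. Tested with edgeR (quasi-likelihood, p-values adjusted over all genes by Benjamini-Hochberg), 0 of the 7 passed an adjusted p of 0.05 in each of 7 comparisons. The share of all genes called was 0.0533% for genotype with control peptide, 0.181% for genotype with inhibitor, 0.587% for genotype over both peptides, and 0.0% for the interaction and for the inhibitor in APP/PS1, in WT and over both genotypes. An unadjusted p under 0.05 was found for Cxcr2 in genotype with inhibitor and for Ngp in genotype over both peptides, and for none of the 7 in the other 5 comparisons. Of all genes tested, 3.38% and 6.38% were under that p in these comparisons. Without the filter, all 10 genes were tested among 30805, and 0 passed in each comparison. The shares called there were 0.0422%, 0.123% and 0.37% for the 3 genotype effects in the same order and 0.0% for the rest. In that fit, 8 of the 10 genes were higher and 2 lower in APP/PS1 with control peptide (median log2 change 1.08), 4 higher and 6 lower with inhibitor (-0.23), and 7 higher and 3 lower over both peptides (0.24). For the inhibitor, 0 were higher and 10 lower in APP/PS1 (-0.99), and 6 higher and 3 lower in WT (0.09). The median over all genes lay between -0.0024 and 0.022 in these comparisons and the interaction. These counts rested on single libraries. Without APP_SC replicate 2, and with no filter, 3 of the 10 were higher and 6 lower in APP/PS1 with control peptide (median -0.20), and 8 were higher and 2 lower with inhibitor in APP/PS1 (0.40). Without WT_NOX2 replicate 2, 10 were higher and 0 lower in APP/PS1 with inhibitor (0.97), and 1 was higher and 8 lower with inhibitor in WT (-0.73). Without APP_NOX2 replicate 1, 1 was higher and 9 lower in APP/PS1 with inhibitor (-0.80). These 3 fits were chosen after seeing the data. In those without WT_NOX2 replicate 2 or APP_NOX2 replicate 1, 0 of the 10 passed in each comparison. With the filter, the fit without WT_NOX2 replicate 2 called 0 to 110 of 18704 genes per comparison.

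DESeq2's Wald test also called 0 in every comparison, with background shares of 0.245%, 0.325% and 0.971% for the same 3 effects. It gave no adjusted p for 4 of the 7 genes in genotype with control peptide and for 1, Ngp, in each other comparison. Whether a gene could be tested rested on single libraries: without WT_NOX2 replicate 2, 5 of the 10 passed the filter, and Cxcr2 and Mmp8 no longer did.

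Genotype was compared first. With control peptide, Ngp had a log2 change of 1.31 ± 0.90 (SE) and Mmp8 of 1.64 ± 1.02 (SE) in APP/PS1 relative to WT, each with an edgeR adjusted p of 1.00. Without APP_SC replicate 2, which leaves 1 library that is assumed to vary like the other groups, these were -0.48 and 0.23. With inhibitor, Ngp had a log2 change of 1.24 ± 0.83 (SE) and Cxcr2 of -2.12 ± 0.95 (SE), each with an adjusted p of 1.00. Without APP_NOX2 replicate 1, the value of Ngp was -0.70, and without WT_NOX2 replicate 2 it was 2.15. The value of Cxcr2 turned to 0.30 ± 0.89 (SE, edgeR with no filter) without WT_NOX2 replicate 2, where the 4 other WT_NOX2 libraries averaged 0.115 CPM and APP_NOX2 averaged 0.150 CPM. Over both peptides, Ngp had a log2 change of 1.27 ± 0.59 (SE), the smallest adjusted p of any of the genes (edgeR, 0.766). Leaving out APP_NOX2 replicate 1 gave 0.50 for Ngp (adjusted p = 0.935), and leaving out WT_NOX2 replicate 2 gave 1.65 (adjusted p = 0.404). Cxcr2 and Mmp9 had log2 changes of -1.16 ± 0.70 (SE) and 0.03 ± 0.24 (SE) over both peptides, and Cxcr2 was at 0.04 with no filter and without WT_NOX2 replicate 2.

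The inhibitor was compared within each genotype. In APP/PS1, the 7 values with all libraries were below 0, from -1.86 ± 1.19 (SE) for Cxcr2 to -0.13 ± 0.41 (SE) for Mmp9, with -1.08 ± 0.88 (SE) for Ngp, and the edgeR adjusted p was 1.00 for each. Ngp was at 0.69 without APP_SC replicate 2 and at -3.02 ± 0.74 (SE, edgeR adjusted p = 1.00) without APP_NOX2 replicate 1, so its direction rested on which high library was kept. Of the 8 genes tested without APP_SC replicate 2, 6 were above 0 and 2 below (median 0.14). In WT, Ngp had a log2 change of -1.02 ± 0.86 (SE), Mmp8 of 0.94 ± 0.89 (SE) and S100a8 of 0.01 ± 0.61 (SE), each with an adjusted p of 1.00. The SE of S100a8 was 0.76 with no filter and 0.70 with DESeq2, so 0.61 may be too small. Without WT_NOX2 replicate 2, S100a8 was at -1.55 ± 0.63 (SE) and Ngp at -1.92 ± 1.02 (SE), and neither passed (edgeR adjusted p = 1.00). With no filter, Mmp8 then turned to -0.73 ± 0.93 (SE) and Cxcr2 was at -2.26 ± 0.75 (SE), each with an adjusted p of 1.00. Over both genotypes Ngp was at -1.05 ± 0.60 (SE). The interaction, the inhibitor effect in APP/PS1 minus that in WT, was -2.16 ± 1.31 (SE) for Mmp8, -2.03 ± 1.41 (SE) for Cxcr2 and -0.06 ± 1.45 (SE) for Ngp, each with an adjusted p of 1.00. Without WT_NOX2 replicate 2 and with no filter, it was -0.52 for Mmp8 and 0.41 for Cxcr2. The comparisons with APP_SC share its 2 libraries. For genotype with control peptide, the standard errors were 0.41 for Mmp9 and 0.86 to 1.02 for the other genes tested. Changes of several-fold could therefore be missed for most of these genes.

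**Figure D4:**
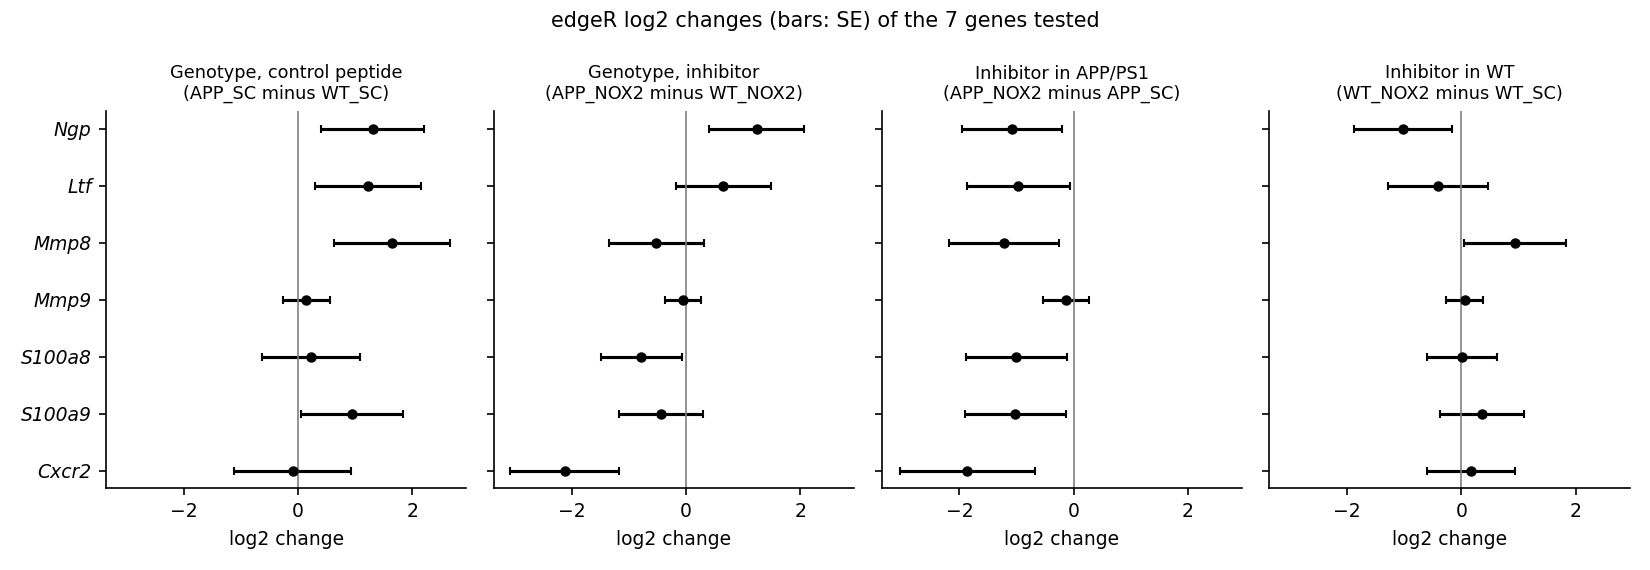
Log2 changes (horizontal axes, edgeR) of the 7 genes tested, with bars of 1 SE, in 4 comparisons. Most bars are wide, from 0.32 for Mmp9 to 1.19 for Cxcr2 over the panels, and 0 of the 7 genes passed in any panel.

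Genes whose levels did not overlap between groups were counted among the 10 and among all 30805 genes with a count. For genotype with control peptide, 1 of 10 did not overlap, Camp, against 6.12% of 30805 genes. Camp had 1 and 3 counts in APP_SC and 0 in every WT_SC library, all at or under the floor of 3 counts. For the inhibitor in APP/PS1 it was also 1 of 10, Cxcr2, at 0.499 and 0.607 CPM in APP_SC and 0 to 0.246 CPM in APP_NOX2, against 4.34% of genes. The count was 0 of 10 for genotype with inhibitor, the inhibitor in WT, genotype over both peptides and the inhibitor over both genotypes, where 0.627%, 0.266%, 0.172% and 0.00325% of genes did not overlap.

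Of 26 other genes of mature neutrophils, 11 passed the filter, and Csf3r and Itgam were called. For genotype over both peptides, Csf3r, the receptor for granulocyte colony-stimulating factor, rose in APP/PS1 by 1.04 ± 0.12 (SE, log2, edgeR adjusted p = 4.27e-05). Itgam, the alpha chain of the integrin Mac-1, rose by 0.88 ± 0.20 (SE, log2, adjusted p = 0.0456). With inhibitor Csf3r passed again, at 1.09 ± 0.15 (SE, adjusted p = 0.00186), and with control peptide it was at 0.96 ± 0.19 (SE, adjusted p = 0.0859). The medians over the 11 genes were 0.07 over both peptides, 0.11 with control peptide and -0.08 with inhibitor, against 0.0017, 0.0047 and 0.0018 over all genes. Csf3r and Itgam are also genes of microglia, whose summed markers (6 genes) were at 187 to 232 CPM in WT_SC, 180 to 250 in WT_NOX2, 314 to 390 in APP_SC and 219 to 400 in APP_NOX2. The part of microglia in their change was not tested. In APP_SC replicate 2, APP_NOX2 replicate 1 and WT_NOX2 replicate 2, Csf3r had 301, 350 and 258 counts, and APP_NOX2 replicate 2, which was low for the neutrophil genes, had 381. Pglyrp1 and Lcn2, the others on the list with the highest mean level, were not called. Lcn2 had 7 to 1078 counts in WT_SC, 25 to 697 in WT_NOX2 and 14 to 78 in APP/PS1 libraries, with an adjusted p of 0.166 for genotype over both peptides. Its highest library, WT_SC replicate 5, was not one of the 3 with high neutrophil genes, although WT_NOX2 replicate 2 had 697 counts. None of the inhibitor effects or the interaction called a gene of this list by edgeR, with 1 gene at an unadjusted p under 0.05 in APP/PS1, 1 for the interaction and 0 in WT and over both genotypes. Of all genes, 1.80%, 0.843%, 1.34% and 2.11% were under that p.

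The genes whose levels ranked most like the summed neutrophil genes over the 17 libraries were Ifi203-ps, Gm43231, Erich6, Ublcp1 and Ptgs2os, among 18671 genes compared. Their Spearman correlations were 0.777, 0.762, 0.745, 0.711 and 0.708. Without WT_NOX2 replicate 2 and APP_SC replicate 2, the libraries farthest from the median, they were 0.679, 0.821, 0.643, 0.611 and 0.754. These are the highest of many correlations and are given as a description, with no p.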

How the data were processed

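RNA was sequenced from cortical microvessels in 17 libraries. Per the labels' protocols, vessels were collected from ipsilateral cortex after surgery by centrifugation in dextran, ribosomal RNA was depleted and stranded mRNA libraries were made. The authors deposited raw counts per Ensembl gene, in whole numbers. The submitters' processing notes name cutadapt, STAR, HTSeq and DESeq2 and the builds mm10 and GRCh37, with no role, so how reads shared between genes were treated is not given in the sources used here. Another 20 columns matched no sample and were not used. Symbols came from GENCODE vM21 (42250 of 42687 IDs).

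Genes were kept with filterByExpr and tested with edgeR 4.0.16 (TMM, quasi-likelihood F test, Benjamini-Hochberg over all genes, threshold 0.05) on all 17 libraries, because APP_SC has 2. Means per group gave 5 comparisons, and 2 more came from a model with genotype and peptide as additive terms. SE was computed from the log2 change and F. CPM used TMM-scaled library sizes, and log2 CPM a prior count of 2. Batch, sex and pairing are not given by the labels. No 2 libraries were identical (136 pairs), and chi-square divided by its degrees of freedom was 5.04 to 84.3 for pairs of 1 group. The fit was tested on simulated data. Alternatives were DESeq2 size factors in edgeR, unscaled library size, no filter, DESeq2 1.42.0, leaving out each library, and, added after seeing the data, no filter without each of 3 high libraries. Replicates were numbered by sample order. Poisson and Wilson intervals are at 95% and, like the floors, describe counting error alone, since no molecular identifiers are named. Beyond the 10 genes, the text names genes of 2 other neutrophil lists that passed the threshold or were among the 4 highest in mean CPM, and the 5 genes most like the sum. The genes and lists were chosen with earlier results of these data known.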

Additional observations from a re-analysis of the deposited data

Results flagged for a closer look

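In groups of 5 libraries, the 10 genes and their sum gave 30 sets of values that vary, and in 12 of them the gap of 1 library to the nearest other, divided by the range, was above Dixon's 95% critical value of 0.71. For normally distributed values chance gives about 1.5, but many of these are counts near 0, for which it is no reference. The genes share libraries, so these are not 12 independent results. WT_NOX2 replicate 2 gave 5 of them. It had 3.18 CPM of S100a8 against 0.26 to 0.466 in the other WT_NOX2 libraries, 1.3 CPM of Mmp8 against 0 to 0.26, 2.46 CPM of Cxcr2 against 0 to 0.28, and 1.62 CPM of Retnlg against 0.0935 to 0.269. Its sum over the 10 genes was 15.8 CPM against 2.41 to 3.59.

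APP_NOX2 replicate 1 gave 6. It had 4.3 CPM of Ngp against 0.0819 to 0.517 in the other APP_NOX2 libraries, 1.71 CPM of Ltf against 0 to 0.369, 1.52 CPM of S100a8 against 0.164 to 0.443, 0.379 CPM of Camp against 0 to 0.0819, and 0.758 CPM of Mmp8 against 0 to 0.217. Its sum was 12.3 CPM against 2.82 to 4.17. The remaining one, Ly6g at 0.0907 CPM in APP_NOX2 replicate 4, is a single count. In APP_SC, a group of 2, this comparison was not made.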

How the results depend on the processing

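In all 24 alternatives, 17 of which left out 1 library and 3 of which, added after seeing the data, left out 1 of the 3 high libraries with no filter, 0 of the genes tested passed the adjusted p of 0.05 in each of the 7 comparisons. The number of the 10 genes that could be tested ranged from 5 to 8 over the filtered fits without 1 library. Of 17 log2 changes given for single genes with all libraries, 11 changed sign in some alternative. The change of S100a8 with inhibitor in WT was -0.00084 with DESeq2 size factors, -0.0043 with no filter and -0.11 with DESeq2, and -1.55 to 0.24 over filtered fits without 1 library. Over such fits Ngp ranged from -0.48 to 2.13 for genotype with control peptide, from -0.70 to 2.15 for genotype with inhibitor, from -3.02 to 0.69 for the inhibitor in APP/PS1 and from -1.99 to 1.72 for the interaction. Mmp9 ranged from -0.18 to 0.22 for genotype over both peptides and from -0.68 to 0.65 for the inhibitor in APP/PS1. With no filter and without WT_NOX2 replicate 2, Cxcr2 was at 0.30 for genotype with inhibitor, 0.041 for genotype over both peptides and 0.41 for the interaction, Mmp8 at -0.73 and S100a8 at -1.56 for the inhibitor in WT, and Ngp at 0.86 for the interaction. With no filter and without APP_SC replicate 2, Ngp was at -0.47 for genotype with control peptide, 0.68 for the inhibitor in APP/PS1 and 1.70 for the interaction, Mmp9 at -0.19 for genotype over both peptides and 0.63 for the inhibitor in APP/PS1, and S100a8 at -0.0016 for the inhibitor in WT. With no filter and without APP_NOX2 replicate 1, Ngp was at -0.69 for genotype with inhibitor, Mmp9 at -0.033 for genotype over both peptides and S100a8 at -0.0092 for the inhibitor in WT. The causes of these changes of sign were not tested. The sign was kept in every alternative that gave a value by Cxcr2 for the inhibitor in APP/PS1, by Mmp8 for genotype with control peptide and the interaction, and by Ngp for genotype over both peptides and for the inhibitor in WT and over both genotypes. The mean summed level ranged from 5.70 to 6.39 CPM in WT_SC, 3.12 to 6.47 in WT_NOX2, 4.12 to 15.7 in APP_SC and 3.48 to 5.84 in APP_NOX2 when 1 library was left out. No paired analysis was possible because the labels give no replicate numbers. At totals of 7316503 to 17862965 counts, most of these genes had under 10 counts in a library, and the standard errors of the log2 changes given reached 1.45.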
